A study of Homo sapiens with 8 samples.

Results

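The EGFR family members examined were 10 genes of the 38148 in the deposited table of HT29 cells: the receptors EGFR, ERBB2 and ERBB3, the ligands AREG, EREG, TGFA, HBEGF, BTC and EPGN, and the intracellular inhibitor ERRFI1. They were chosen by gene symbol, and each symbol matched 1 row. HT29 is a human colorectal cancer line that carries an activating BRAF mutation, and selumetinib inhibits MEK1/2, the kinases between RAF and ERK. HT29 cells were left untreated or received selumetinib at 1 μM for 24 h, and cells of both arms were fixed in glyoxal, stained for cyclin B1 (CCNB1, a protein that builds up in G2) and flow sorted on that stain before poly(A) mRNA-seq. The 2 arms and the 2 fractions, CCNB1-positive and CCNB1-negative, make 4 groups of 2 libraries, with 12696860 to 23916160 reads on genes. The labels do not say which culture each library came from, although replicates of the study's matching experiment in another line are called biological, and p-values measure only the spread between these libraries.

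The labels of these libraries conflict. For each of the 8 libraries, title and description disagree on both treatment and fraction, and the groups here follow the description, which is also the column name in the table. Under the titles, each selumetinib difference would change sign and pass to the other fraction, and each difference between fractions would change sign and pass to the other arm. Grouped by the titles, CCNB1 mRNA would be lower in cells sorted as positive for its protein than in those sorted as negative, in both arms, and 11 of 13 ERK target genes would be higher with the MEK inhibitor in both fractions. Grouped by description, CCNB1 mRNA stood at 136 and 171 RPM (reads of a gene scaled to 1000000 reads on genes) in untreated CCNB1-negative libraries and at 591 and 704 RPM in untreated CCNB1-positive libraries. With selumetinib it stood at 11.01 and 6.93 RPM in CCNB1-negative and at 309 and 267 RPM in CCNB1-positive libraries. The summed level of 5 G2/M genes (CCNB1, CCNB2, CDK1, CCNA2 and PLK1) was 466 to 493 RPM in untreated and 34.1 to 49.4 RPM in selumetinib-treated CCNB1-negative cells, against 1701 to 1985 and 861 to 953 RPM in CCNB1-positive cells, so cell cycle genes moved with treatment in both fractions and their part in the results below was not tested. In sorted bulk samples, fewer cells of a type and less RNA per cell cannot be told apart. Markers of colorectal epithelium were present (10 of 10 genes tested, summed level 11564 to 12960 RPM in untreated and 6795 to 11059 RPM in treated libraries). KRT8 and KRT18 weigh most in this sum, and the markers did not all move with it. At a limma adjusted p under 0.05, 3 were higher and 3 lower with selumetinib in CCNB1-negative cells. In CCNB1-positive cells 4 were higher and 1 lower. Fibroblast markers summed to 0.68 to 1.09 RPM in untreated and 1.73 to 5.71 RPM in treated libraries, leukocyte markers to 5.91 to 12.5 RPM and endothelial markers to 1.05 to 1.81 RPM, with COL3A1, DCN and CD3E at 0 to 4 reads in every library. COL1A1, a fibroblast collagen, had 6 to 24 reads in untreated and 20 to 107 in treated libraries and was higher with selumetinib, by 1.81 (CCNB1-negative) and 2.19 (CCNB1-positive) on the log2 scale (limma adjusted p = 0.0043 and 0.00149), and CD68, a macrophage marker, had 64 to 231 reads. Their part in the results was not tested.

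ERBB receptors are tyrosine kinases of the cell surface that work as dimers. Ligand binding to EGFR or ERBB3 promotes dimerization, and the dimers signal through RAS, RAF, MEK and ERK and through PI3K and AKT. ERBB2 has no known ligand of its own and is a preferred partner, while ERBB3 has little kinase activity and recruits PI3K through its phosphorylated tail. The ligands are made as membrane-bound precursors that metalloproteases release, and in intestinal epithelium and colorectal cancer AREG and EREG are the best known of them. ERRFI1 (also called MIG6) binds the EGFR kinase domain and blocks it, and its transcription is a feedback arm of ERK signalling.

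The ligand genes EPGN, EREG, AREG and BTC lie close together on chromosome 4, and EREG, AREG and BTC are the ligands called higher with selumetinib in 1 or both fractions, so their promoter windows are shown, with that of ERRFI1 as a member that was lower. Each window is the 250 bases before the gene's start in RefSeq (GRCh38.p14), read 5′ to 3′ on the gene's strand. The EREG window lies at chr4:74364895-74365144 (plus strand), the AREG window at chr4:74444886-74445135 (plus), the BTC window at chr4:74794524-74794773 (minus) and the ERRFI1 window at chr1:8026310-8026559 (minus). Capitals mark matches, on either strand, to any of 8 motifs searched: CCGGAAG for ETS factors, TGANTCA for AP-1, TGACGTCA for the cAMP response element (CRE), GTAAACA for FOXO factors, CACGTG for the E-box, GGGCGG for the GC box, TATAAA for the TATA box and GGAATG for TEAD factors.
EREG: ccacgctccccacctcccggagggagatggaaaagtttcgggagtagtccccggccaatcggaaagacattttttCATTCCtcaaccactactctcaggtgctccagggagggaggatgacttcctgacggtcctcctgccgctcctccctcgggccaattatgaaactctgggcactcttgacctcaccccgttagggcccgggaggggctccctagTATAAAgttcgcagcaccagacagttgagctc
AREG: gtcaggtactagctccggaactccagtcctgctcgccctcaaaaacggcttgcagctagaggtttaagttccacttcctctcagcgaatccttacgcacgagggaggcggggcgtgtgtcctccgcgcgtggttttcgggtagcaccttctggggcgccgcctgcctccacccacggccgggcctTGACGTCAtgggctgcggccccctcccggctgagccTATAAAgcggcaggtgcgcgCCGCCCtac
BTC: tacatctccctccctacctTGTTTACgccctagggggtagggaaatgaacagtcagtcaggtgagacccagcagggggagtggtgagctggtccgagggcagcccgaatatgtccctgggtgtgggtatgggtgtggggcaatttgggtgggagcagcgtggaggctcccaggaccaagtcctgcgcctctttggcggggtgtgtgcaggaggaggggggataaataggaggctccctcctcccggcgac
ERRFI1: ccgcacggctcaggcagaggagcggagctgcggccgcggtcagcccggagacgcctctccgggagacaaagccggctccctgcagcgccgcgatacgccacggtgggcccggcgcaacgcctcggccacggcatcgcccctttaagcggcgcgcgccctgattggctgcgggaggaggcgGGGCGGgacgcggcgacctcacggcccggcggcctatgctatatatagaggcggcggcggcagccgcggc
Positions are those of a match's first base on the printed strand, with -1 just before the start. The EREG window held a TATA box at -32 and a TEAD match on the opposite strand at -175. In the AREG window there were a CRE at -65, a TATA box at -29 and a GC box on the opposite strand at -9. The BTC window held a FOXO match on the opposite strand at -231 and the ERRFI1 window a GC box at -70. Among 27305 promoter windows of the same length, 1.77% held the CRE, 2.98% the FOXO motif, 11.1% the TATA box, 11.9% the TEAD motif and 42.3% the GC box. Elsewhere, 9 of 10 members had a window (not ERBB3): that of ERBB2 held 2 ETS matches and 1 AP-1 match (in 8.82% and 6.6% of all windows), that of EPGN 1 TATA box, and those of EGFR, TGFA and HBEGF 2, 3 and 5 GC boxes. These matches are a description of the letters and not of binding.

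To compare levels between genes, reads were divided by the length of the canonical transcript and by the reads on genes (RPKM). AREG was the most abundant member in every group, at 186 ± 0.0804 RPKM in untreated CCNB1-negative cells (mean ± SD, n = 2 here and below), 122 ± 10.9 in untreated CCNB1-positive, 247 ± 12.3 in selumetinib CCNB1-negative and 235 ± 23.3 in selumetinib CCNB1-positive cells. In untreated CCNB1-negative cells it was followed by ERRFI1 (33.97 ± 3.09 RPKM), ERBB3 (31.4 ± 0.0169), EREG (26.5 ± 1.65), ERBB2 (21.0 ± 2.32), TGFA (9.51 ± 0.798), HBEGF (6.74 ± 1.31), EGFR (5.89 ± 0.188) and BTC (0.912 ± 0.0764), and EPGN had no read. Of the neighbours in this order, the libraries of HBEGF and EGFR overlapped. In untreated CCNB1-positive cells the order was the same except that ERBB2 stood above EREG, with overlapping libraries, and EGFR above HBEGF. With selumetinib ERBB3 came next after AREG, at 85.9 ± 6.12 RPKM in CCNB1-negative cells and 58.5 ± 0.0375 in the CCNB1-positive fraction, and ERRFI1 stood below ERBB2 and EREG, at 21.8 ± 1.03 and 19.3 ± 1.28. EREG and ERBB2 had overlapping libraries in both treated groups. Dividing by the length of all annotated exons instead left AREG first in all 4 groups but put EREG above ERBB3 in both untreated groups, so the order of those genes depends on the transcript length chosen.

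The receptor mRNAs together summed to 56.4 to 59.96 RPKM in untreated CCNB1-negative, 45.8 to 51.2 in untreated CCNB1-positive, 130 to 136 in selumetinib CCNB1-negative and 96.8 to 99.2 in selumetinib CCNB1-positive libraries. Within that sum EGFR took 10.04% to 10.2% and 10.8% to 11.5% in the untreated fractions and 4.28% to 4.73% and 5.52% to 5.83% in the treated ones. ERBB3 took 52.3% to 55.6% and 47.9% to 50.9% without the drug and 62.5% to 66.3% and 58.9% to 60.4% with it. The receptor make-up thus held proportionally more ERBB3 and less EGFR in treated libraries of both fractions. The ligand mRNAs summed to 228 to 231 and 147 to 162 RPKM in the untreated CCNB1-negative and CCNB1-positive libraries and to 294 to 315 and 266 to 296 RPKM in the treated ones, and AREG made up 77.5% to 84.8% of the ligand sum in every library.

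**Figure D1:**
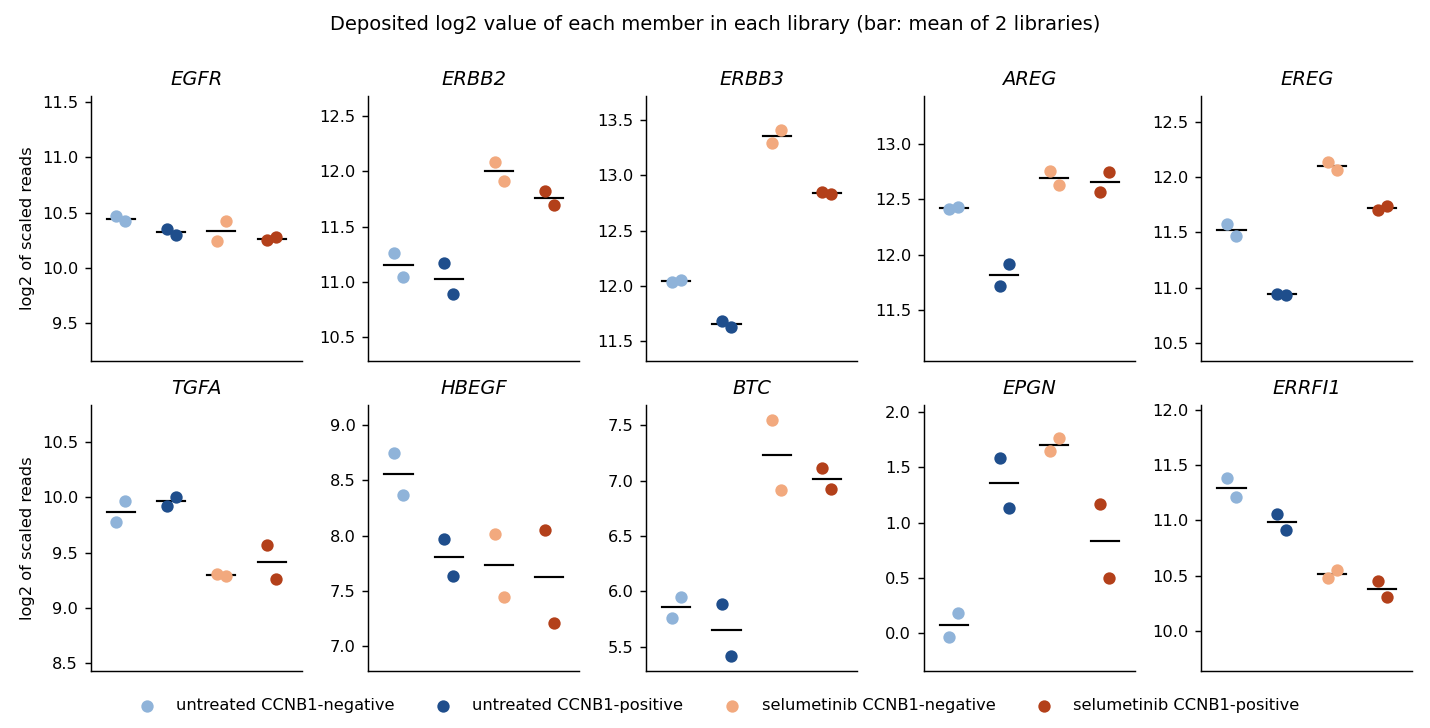
Deposited log2 value (log2 of scaled reads, y axis of each panel, cut to the range of that gene) of each of the 10 members in each of the 8 libraries, coloured by group, with a bar at the mean of the 2 libraries. ERBB2, ERBB3, EREG and BTC lie higher and TGFA and ERRFI1 lower in treated libraries of both fractions, while EPGN stays at 0 to 3 reads.

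The question for each fraction was whether selumetinib changed the abundance of each member's mRNA. Values below are the deposited log2 of reads, which the authors scaled to total read count, and differences are given on that log2 scale with the standard error (SE) from limma. A change was called at a Benjamini-Hochberg adjusted p under 0.05 over the 14219 genes that averaged at least 1 RPM, and 9 members were among them (all but EPGN). In CCNB1-negative cells 4 members rose (ERBB2, ERBB3, EREG and BTC) and 3 fell (TGFA, HBEGF and ERRFI1). Over all genes tested 74.1% were called in that comparison, 38.2% higher and 35.8% lower, so 7 called of 9 is near the background. In CCNB1-positive cells 5 members rose (the same 4 and AREG) and 2 fell (TGFA and ERRFI1), where 65.3% of all genes were called, 38.0% higher and 27.3% lower. What follows is therefore the size and direction of each member's change, not the number called. The median change of all genes tested was 0.05 in CCNB1-negative cells and 0.17 in the CCNB1-positive fraction, and of the 9 members 0.27 and 0.73.

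**Figure D2:**
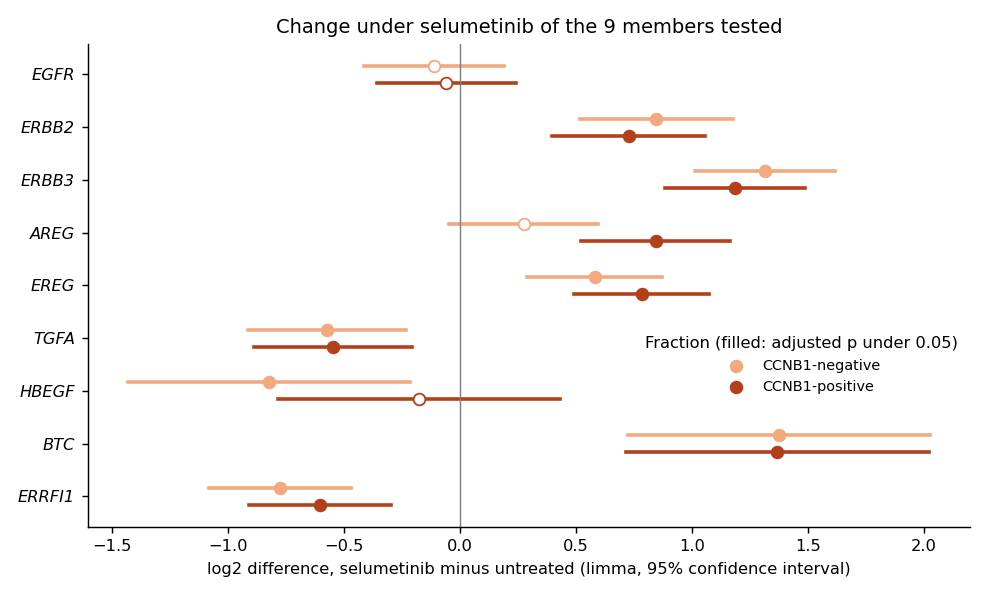
log2 difference (selumetinib minus untreated, x axis) of the 9 members tested, in CCNB1-negative and CCNB1-positive cells, with the 95% confidence interval from limma and filled points where the adjusted p was under 0.05. ERBB3 (1.31 and 1.18) and BTC (1.37 and 1.37) show the highest values, and the intervals of EGFR span 0 in both fractions.

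EGFR (ENSG00000146648, chr7:55019017-55211628, plus strand, GRCh38), the receptor of all 6 ligands examined, was not called in either fraction. Its log2 values were 10.47 and 10.42 in untreated CCNB1-negative cells, 10.35 and 10.30 in untreated CCNB1-positive, 10.24 and 10.42 in selumetinib CCNB1-negative and 10.25 and 10.28 in selumetinib CCNB1-positive libraries. The groups overlapped in the CCNB1-negative fraction, and in the CCNB1-positive one both treated libraries lay just below both untreated ones. The difference was -0.11 ± 0.14 (SE; 95% interval -0.41 to 0.19; limma adjusted p = 0.475) in CCNB1-negative and -0.06 ± 0.14 (-0.36 to 0.24; limma adjusted p = 0.718) in CCNB1-positive cells. This direction turned with the scaling: it was 0.03 and 0.04 with limma-voom on the reads on genes, 0.01 and -0.01 after quantile normalization, and -0.37 and -0.40, both called, with median-ratio scaling. EGFR overlaps the antisense gene EGFR-AS1, and the strand handling of this table is not given in the sources used here, so reads of the pair may not be separated.

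ERBB3 (ENSG00000065361, chr12:56076799-56103505, plus strand), the PI3K-recruiting receptor of neuregulins, rose in both fractions. In untreated cells it stood at log2 12.03 and 12.05 (CCNB1-negative) and 11.69 and 11.63 (CCNB1-positive), and in treated cells at 13.30 and 13.41 and at 12.85 and 12.83. No treated library overlapped an untreated one. The rise was 1.31 ± 0.14 (2.49-fold, limma adjusted p = 1.6e-06) in the CCNB1-negative fraction and 1.18 ± 0.14 (2.27-fold, limma adjusted p = 9.2e-06) in the CCNB1-positive fraction. It kept its call under all 3 other scalings, at 1.06 to 1.76 in CCNB1-negative cells and 0.84 to 1.56 in the CCNB1-positive fraction. The annotation has a readthrough gene on the same strand over ERBB3, and reads shared by both could be counted for either.

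ERBB2 (ENSG00000141736, chr17:39687914-39730426, plus strand), the ligandless partner receptor, also rose. Its untreated libraries stood at log2 11.26 and 11.05 (CCNB1-negative) and 11.17 and 10.89 (CCNB1-positive), against 12.08 and 11.92 and 11.82 and 11.69 with selumetinib, again without overlap. The difference was 0.85 ± 0.15 (1.80-fold, limma adjusted p = 0.0002) in the CCNB1-negative fraction and 0.73 ± 0.15 (1.66-fold, limma adjusted p = 0.00095) in the CCNB1-positive fraction, and it was called under every scaling, being smallest with median-ratio scaling (0.59 and 0.38). Both neighbours that overlap ERBB2 on the opposite strand changed too, in opposite directions. PGAP3, which remodels GPI anchors, rose by 0.93 and 0.84 (limma adjusted p = 0.00047 and 0.00149), and MIEN1 fell by 0.98 and 0.57 (limma adjusted p = 3.8e-05 and 0.00412). How many reads of ERBB2 come from the overlaps was not tested.

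Among the ligands, BTC (betacellulin, ENSG00000174808, chr4:74744759-74794523, minus strand), which binds EGFR and ERBB4, rested on few reads. It had 50 and 49 reads in untreated CCNB1-negative, 59 and 39 in untreated CCNB1-positive, 119 and 71 in selumetinib CCNB1-negative and 123 and 77 in selumetinib CCNB1-positive libraries, although the treated libraries were shallower in both fractions. On the log2 scale these were 5.76 and 5.95, 5.88 and 5.42, 7.54 and 6.91, and 7.11 and 6.92. The treated values did not overlap the untreated ones in either fraction. The rise was 1.37 ± 0.30 in both fractions (2.59-fold and 2.58-fold, limma adjusted p = 0.00097 and 0.00136). Quantile normalization ended both calls, at 0.56 (adjusted p = 0.108) and 0.30 (adjusted p = 0.405), below AREG (0.68 and 1.22) and EREG (0.84 and 0.98) on the same scale.

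EREG (epiregulin, ENSG00000124882, chr4:74365145-74388749, plus strand) and AREG (amphiregulin, ENSG00000109321, chr4:74445136-74455005, plus strand) are EGFR ligands whose promoter windows are printed above. For EREG the untreated libraries stood at log2 11.57 and 11.46 (CCNB1-negative) and 10.94 and 10.93 (CCNB1-positive), and the treated ones at 12.13 and 12.06 and at 11.70 and 11.74, with no overlap within a fraction. EREG rose by 0.58 ± 0.14 (1.496-fold, limma adjusted p = 0.00145) in the CCNB1-negative fraction and 0.78 ± 0.14 (1.72-fold, limma adjusted p = 0.0002) in the CCNB1-positive fraction. Median-ratio scaling left the CCNB1-negative rise at 0.33 (adjusted p = 0.063) and ended that call.

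AREG stood at log2 12.41 and 12.43 in untreated CCNB1-negative, 11.72 and 11.91 in untreated CCNB1-positive, 12.76 and 12.63 in selumetinib CCNB1-negative and 12.56 and 12.75 in selumetinib CCNB1-positive libraries. Treated and untreated libraries did not overlap in either fraction, and the untreated CCNB1-positive libraries were the lowest. The rise was called in CCNB1-positive cells, at 0.84 ± 0.15 (1.79-fold, limma adjusted p = 0.00025). In CCNB1-negative cells the difference was 0.27 ± 0.15 (95% interval -0.05 to 0.59, limma adjusted p = 0.112), and this depended on the scaling: it was 0.02 with median-ratio scaling (adjusted p = 0.927), but 0.41 with limma-voom (adjusted p = 0.0206), 0.41 with 1 RPM added before taking logs (adjusted p = 0.02) and 0.68 after quantile normalization (adjusted p = 0.00099), all 3 of them calls. The difference between the fractions' AREG responses was 0.57 ± 0.21 (limma adjusted p = 0.148) and was not called. This fit leaves out replicate number, and a fit with a block for replicate number within each treatment called it. With that block 3850 of the 14219 genes tested were called for this difference, against 758 without it. Whether AREG is shown to respond differently in the fractions thus depends on the fit.

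TGFA (transforming growth factor alpha, ENSG00000163235, chr2:70447284-70554193, minus strand), a high-affinity EGFR ligand, fell in both fractions. Its untreated libraries stood at log2 9.78 and 9.96 (CCNB1-negative) and 9.92 and 10.003 (CCNB1-positive), and the treated ones, all lower, at 9.30 and 9.29 and at 9.57 and 9.26. The difference was -0.57 ± 0.16 (0.672-fold, limma adjusted p = 0.00474) in the CCNB1-negative fraction and -0.55 ± 0.16 (0.684-fold, limma adjusted p = 0.00771) in the CCNB1-positive fraction. Single libraries decided these calls: without untreated CCNB1-negative replicate 2 the first was -0.48 (adjusted p = 0.052), and the second was -0.51 (adjusted p = 0.059) without untreated CCNB1-positive replicate 2 and -0.40 (adjusted p = 0.1) without selumetinib CCNB1-positive replicate 2. The intronic transcript gene TGFA-IT1 lies on the same strand within TGFA.

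HBEGF (heparin-binding EGF-like growth factor, ENSG00000113070, chr5:140332843-140346603, minus strand), a ligand of EGFR and ERBB4, had a replicate SD of 0.23 to 0.59 on the log2 scale. Its log2 values were 8.75 and 8.37 in untreated CCNB1-negative, 7.97 and 7.64 in untreated CCNB1-positive, 8.02 and 7.45 in selumetinib CCNB1-negative and 8.05 and 7.21 in selumetinib CCNB1-positive libraries. The untreated CCNB1-negative libraries were above all the others, and the remaining groups overlapped. HBEGF fell in CCNB1-negative cells, by 0.83 ± 0.28 (0.564-fold, limma adjusted p = 0.017), a call that was lost without untreated CCNB1-negative replicate 1 (-0.63, adjusted p = 0.11) or without selumetinib CCNB1-negative replicate 2 (-0.54, adjusted p = 0.16). In CCNB1-positive cells the difference was -0.18 ± 0.28 (95% interval -0.79 to 0.43, limma adjusted p = 0.595), and it ran from -0.60 to 0.24 as single libraries were left out, positive without selumetinib CCNB1-positive replicate 2. Quantile normalization called it there at -0.80 (adjusted p = 0.0369). The interaction was 0.65 ± 0.40 (limma adjusted p = 0.382).

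EPGN (epigen, ENSG00000182585, chr4:74308473-74315307, plus strand), the remaining EGFR ligand, had 0, 0, 3 and 2 reads in the untreated and 2, 2, 2 and 0 reads in the treated libraries (CCNB1-negative first), and no comparison was made. In the 3 libraries without a read, a count of 0 allows up to 3 reads, or 0.137 to 0.213 RPM at their depths, counting error only.

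ERRFI1 (ENSG00000116285, chr1:8004404-8026309, minus strand), the feedback inhibitor of EGFR, fell in both fractions. Untreated libraries stood at log2 11.38 and 11.21 (CCNB1-negative) and 11.06 and 10.92 (CCNB1-positive), and treated ones at 10.48 and 10.55 and at 10.46 and 10.30, with no overlap. The difference was -0.78 ± 0.14 (0.584-fold, limma adjusted p = 0.00021) in the CCNB1-negative fraction and -0.61 ± 0.14 (0.657-fold, limma adjusted p = 0.00208) in the CCNB1-positive fraction, and it was called under all 4 scalings. A long noncoding gene overlaps ERRFI1 on the opposite strand.

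**Figure D3:**
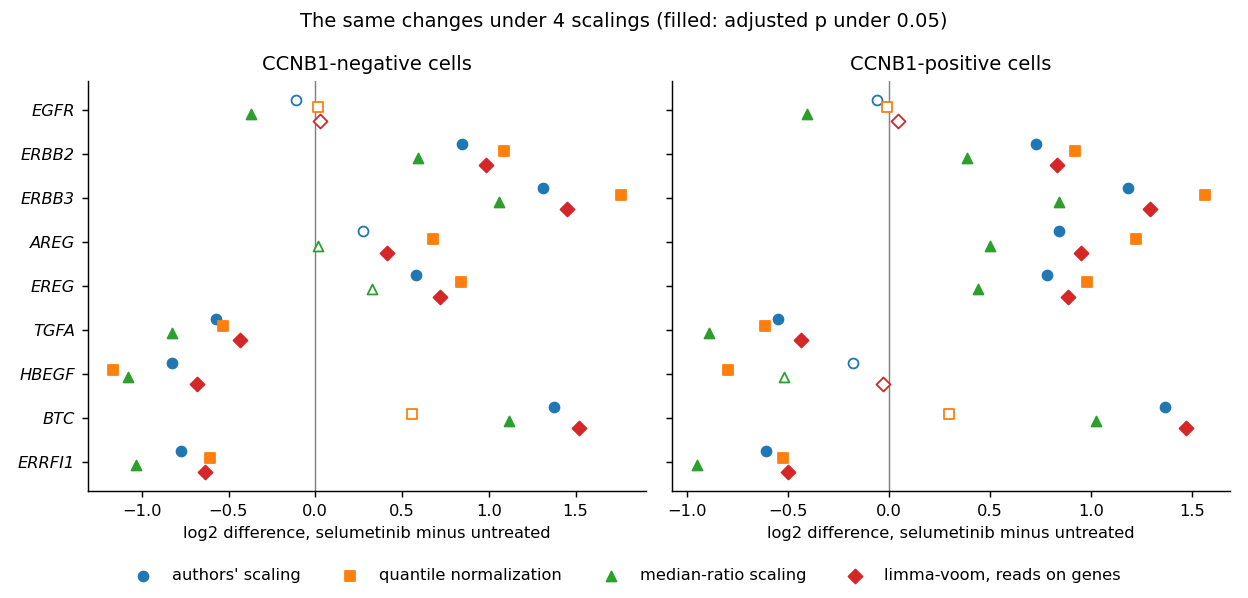
log2 difference (selumetinib minus untreated, x axis) of the 9 members tested under the authors' scaling to total reads, quantile normalization, median-ratio scaling and limma-voom on reads on genes, for each fraction, with filled symbols where the adjusted p was under 0.05. ERBB2, ERBB3, TGFA and ERRFI1 keep direction and call under all 4, while EGFR, AREG and EREG in CCNB1-negative cells, EGFR and HBEGF in CCNB1-positive cells and BTC in both do not.

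The median change of all genes tested was 0.05 (CCNB1-negative) and 0.17 (CCNB1-positive) with the authors' scaling, -0.08 and -0.07 after quantile normalization, -0.21 and -0.18 with median-ratio scaling and 0.19 and 0.27 with limma-voom. The share of called genes that were higher was 51.6% and 58.1% with the authors' scaling and 42.9% and 40.9% with median-ratio scaling. Between fractions it was 47.5% (untreated), 63.6% (treated) and 93.5% (difference of the responses) with the authors' scaling, and 64.8%, 47.9% and 70.9% after quantile normalization. Relative to the median of all genes under the authors' scaling, ERBB3 rose by 1.26 and 1.02, ERBB2 by 0.80 and 0.56, EREG by 0.53 and 0.62 and BTC by 1.32 and 1.201, and ERRFI1 fell by 0.83 and 0.77 and TGFA by 0.62 and 0.71.

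Between the fractions, the question was whether the members' mRNAs differ between CCNB1-positive (G2) and CCNB1-negative cells. These comparisons use the same libraries as the selumetinib comparisons above and are not independent of them. Unless stated, the fits leave out replicate number, as the labels do not say whether same-numbered libraries share a culture. Deviations of same-numbered libraries correlated at 0.352 between the untreated and 0.428 between the treated fractions. A block for replicate number within each treatment called 1923 of 14219 genes between untreated and 6671 between treated fractions. It added ERBB3, HBEGF and ERRFI1 between untreated fractions and ERBB2 and EREG between treated ones, with values given at the end. In untreated cells 2 of the 9 members were called, both lower in CCNB1-positive cells, against 2.87% of all genes (1.36% higher and 1.51% lower). EREG was lower by a difference of -0.58 ± 0.14 (0.669-fold, limma adjusted p = 0.0333) and AREG by -0.60 ± 0.15 (0.658-fold, limma adjusted p = 0.0449), and no untreated CCNB1-positive library reached the CCNB1-negative ones for either. The calls sit close to the threshold. Leaving out any one untreated library ended both (EREG -0.63 to -0.52, AREG -0.70 to -0.51), as did leaving out either selumetinib CCNB1-positive library, which lowers the precision but leaves the differences at -0.58 and -0.60 (adjusted p = 0.063 and 0.069). Median-ratio scaling gave -0.46 (EREG, adjusted p = 0.13) and -0.49 (AREG, adjusted p = 0.17). No member was called higher (0 at an unadjusted p under 0.05 and 0 with limma-voom). At an unadjusted p under 0.05, 5 members were lower: EREG, AREG, ERBB3, HBEGF and ERRFI1. The share of all genes at that level was not counted, and the 2.87% holds for the adjusted p, so no excess can be read from this. HBEGF differed by -0.75 ± 0.28 (limma adjusted p = 0.227), ERBB3 by -0.38 ± 0.14 (limma adjusted p = 0.211) and ERRFI1 by -0.31 ± 0.14 (limma adjusted p = 0.364).

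In selumetinib-treated cells, where 21.6% of all genes differed between fractions (13.8% higher and 7.87% lower in CCNB1-positive cells), 1 of 9 members was called. ERBB3 was lower in CCNB1-positive cells by a difference of -0.51 ± 0.14 (0.701-fold, limma adjusted p = 0.0203), a call lost without selumetinib CCNB1-negative replicate 2 (-0.45), selumetinib CCNB1-positive replicate 1 (-0.52) or selumetinib CCNB1-positive replicate 2 (-0.51), at adjusted p = 0.09 to 0.11. EREG differed by -0.38 ± 0.14 (limma adjusted p = 0.0618), and limma-voom called it at -0.42 (adjusted p = 0.04). AREG, which was lower in untreated CCNB1-positive cells, differed by -0.04 ± 0.15 (95% interval -0.36 to 0.29, limma adjusted p = 0.88) with the drug. No member was called higher in CCNB1-positive cells (0 at an unadjusted p under 0.05, 0 with limma-voom).

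The difference of the responses between fractions was called for 0 of 9 members by limma and 0 by limma-voom. Of all genes, limma called 5.33% (4.99% higher and 0.345% lower). Only AREG had an unadjusted p under 0.05, a level at which the share of all genes was not counted. Both fits leave out replicate number, and a fit with a block for replicate number within each treatment called AREG and HBEGF. That fit called 3850 of all 14219 genes for this difference, against 758 without the block. The 2 member calls are to be read against that larger count. The 95% intervals were wide, at -0.37 to 0.48 for EGFR, -0.58 to 0.35 for ERBB2, -0.56 to 0.30 for ERBB3, 0.11 to 1.02 for AREG, -0.21 to 0.61 for EREG, -0.21 to 1.51 for HBEGF, -0.46 to 0.51 for TGFA, -0.26 to 0.60 for ERRFI1 and -0.93 to 0.92 for BTC, and all of these but that of AREG include 0.

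The other genes of the family were scarce. ERBB4, the remaining receptor, had 5 to 32 reads a library. The neuregulins NRG1 and NRG2, ligands of ERBB3 and ERBB4, had 6 to 23 and 2 to 12 reads, and the neuregulin NRG3 had 3 to 26. All of these were below the filter. NRG4, a ligand of ERBB4, had 13 to 15 reads in untreated and 82 to 166 in treated libraries. It rose by 3.45 ± 0.34 in CCNB1-negative cells and 3.41 ± 0.34 in the CCNB1-positive fraction (limma adjusted p = 8.1e-07 and 2.5e-06). EGF itself had 17, 27, 33 and 25 reads in untreated and 8, 10, 59 and 33 in treated libraries (CCNB1-negative first). Its selumetinib differences of -0.78 ± 0.45 and 0.97 ± 0.45 were not called (limma adjusted p = 0.133 and 0.0746). In treated cells EGF was higher in the CCNB1-positive fraction by 2.01 ± 0.45 (limma adjusted p = 0.00719).

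The transcriptional output of MEK served as the treatment's own readout. The same genes were set beside the conflicting labels above, so they are no separate check of the grouping. Of 13 genes commonly used as ERK targets, 11 fell in CCNB1-negative cells and 2 rose (EGR1 and SPRED2), and 11 fell in the CCNB1-positive fraction and 1 rose (EGR1). The median change was -1.60 and -1.29, against 0.05 and 0.17 for all genes. DUSP6, the ERK phosphatase, changed by -1.75 ± 0.20 and -1.06 ± 0.20 (limma adjusted p = 2.2e-06 and 0.00033), and ETV4, an ETS factor, by -3.10 ± 0.31 and -2.34 ± 0.31 (limma adjusted p = 8.1e-07 and 2.2e-05). The other targets that fell in both fractions were SPRY2, SPRY4, SPRED1, ETV5, PHLDA1, FOSL1, IER3, CCND1 and MYC, with changes of -2.95 to -1.06 in CCNB1-negative cells and -2.02 to -0.71 in the CCNB1-positive fraction. SPRED2 was at 0.72 and 0.45 (limma adjusted p = 0.0058 and 0.0645). EGR1, an immediate early gene, went the other way, by 1.17 ± 0.22 and 1.58 ± 0.22 (limma adjusted p = 0.00032 and 4e-05). ERRFI1 and TGFA moved in the direction of most ERK targets, and ERBB2, ERBB3, EREG and BTC in the opposite one. HBEGF was called lower in CCNB1-negative cells alone and AREG higher in CCNB1-positive cells alone. Of all genes tested, 35.8% and 27.3% were called lower and 38.2% and 38.0% higher (CCNB1-negative first), so direction alone sets no member apart. A link of the members to ERK output was not tested.

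Around the receptors, 4 further lists were described by counts and medians. Of 8 tested genes of ligand release (metalloproteases and their regulators), 3 rose and 3 fell in CCNB1-negative cells and 3 rose and 2 fell in the CCNB1-positive fraction, with medians of -0.04 and -0.05. RHBDL2, a rhomboid protease, rose by 1.38 ± 0.17 and 2.07 ± 0.17 (limma adjusted p = 6.4e-06 and 5.9e-07), ADAM17, the main sheddase of AREG and TGFA, rose by 0.91 ± 0.17 and 0.68 ± 0.17 (limma adjusted p = 0.00019 and 0.00269), and ADAM15 changed by -2.39 ± 0.14 and -1.52 ± 0.14 (limma adjusted p = 9.4e-09 and 1.5e-06). ADAM17 is named here after its values were seen. The other genes of this list that were called are ADAM10 (0.33 and 0.34), ADAM9 (-1.09 and -0.54) and, in CCNB1-negative cells alone, FRMD8 (-1.05).

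Of 18 receptor adaptors and proximal signalling genes, 10 rose and 5 fell in CCNB1-negative cells and 8 rose and 6 fell in the CCNB1-positive fraction, with medians of 0.48 and 0.26. The exchange factor VAV3 had the largest rise, 4.30 ± 0.46 and 4.598 ± 0.46 (limma adjusted p = 1.7e-06 and 2.5e-06), and the phosphatase PTPN11 (SHP2) the largest fall, -1.05 ± 0.16 and -1.14 ± 0.16 (limma adjusted p = 5.2e-05 and 4.2e-05). In the PI3K arm, 7 of 13 rose and 3 fell in CCNB1-negative cells and 7 rose and 4 fell in the CCNB1-positive fraction, with medians of 0.63 and 0.41. PIK3R3, a regulatory subunit of PI3K, rose by 2.80 ± 0.16 and 1.94 ± 0.16 and FOXO3, a transcription factor restrained by AKT, by 2.61 ± 0.15 and 2.401 ± 0.15. AKT1 changed by -1.53 ± 0.17 and -0.92 ± 0.17 and the adaptor IRS1 by -0.99 ± 0.14 and -0.93 ± 0.14.

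Of 22 tested genes of receptor turnover and inhibition, 12 rose and 4 fell in CCNB1-negative cells and 11 rose and 4 fell in the CCNB1-positive fraction, with medians of 0.58 and 0.40. The ubiquitin ligase CBLB, which marks activated EGFR for degradation, rose by 2.77 ± 0.19 and 2.60 ± 0.19 (limma adjusted p = 3.4e-08 and 2.6e-07) and ZFYVE28, an endosomal protein, by 3.00 ± 0.31 and 2.44 ± 0.31 (limma adjusted p = 1.1e-06 and 1.5e-05). RAB11A, a GTPase of recycling endosomes, changed by -1.48 ± 0.18 and -0.99 ± 0.18 (limma adjusted p = 6.7e-06 and 0.00037). Each list's share of called genes is to be read against the 74.1% and 65.3% of all genes.

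**Figure D4:**
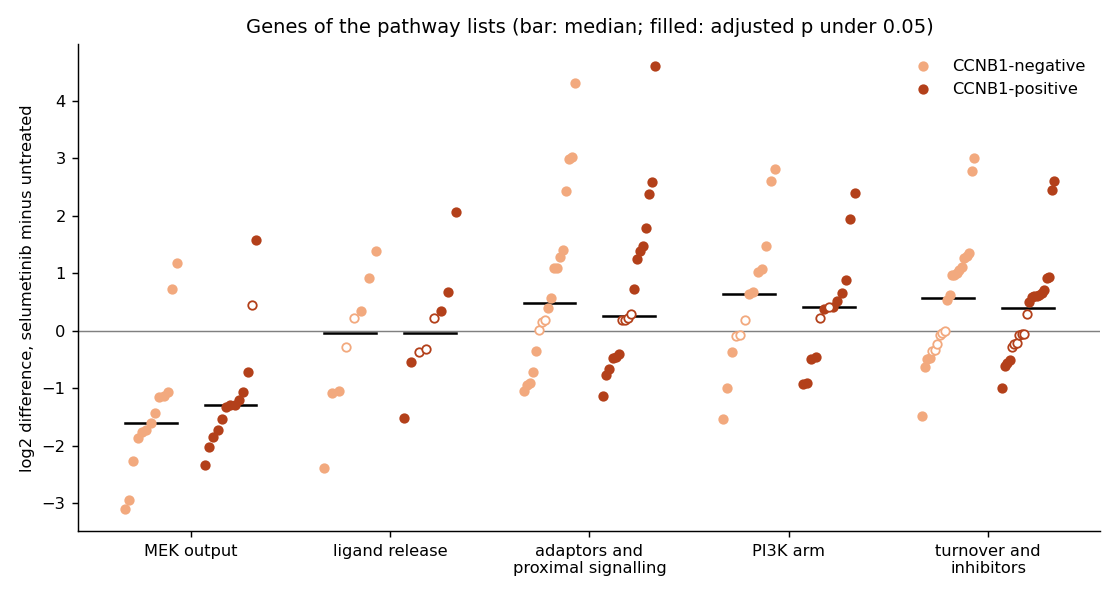
log2 difference (selumetinib minus untreated, y axis) of each tested gene of the 5 pathway lists in CCNB1-negative and CCNB1-positive cells, with a bar at the list's median and filled points where the adjusted p was under 0.05. The ERK target list has medians of -1.60 and -1.29, and the other lists have genes on both sides of 0.

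The 4 ligand genes on chromosome 4 were then set beside their neighbours. The span from 500 kb before EPGN to 500 kb after BTC (chr4:73808473-75294523) holds 24 genes of the table, of which 9 were tested. Apart from EREG, AREG and BTC, the genes called were chemokines: CXCL1 was lower in treated CCNB1-negative cells by a difference of -1.89 ± 0.46 (limma adjusted p = 0.00216), and CXCL2 was higher in treated CCNB1-positive cells by 1.94 ± 0.45 (limma adjusted p = 0.00199). Both rest on few reads, 5 to 89 a library for CXCL1 and 12 to 90 for CXCL2. The tested genes next to the ligands on either side, MTHFD2L and PARM1, were not called in either fraction. EREG and AREG start 80.0 kb apart, BTC starts 429 kb from EREG, and EPGN, whose start lies at -56.7 kb from that of EREG, was near 0 in all libraries.

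**Figure D5:**
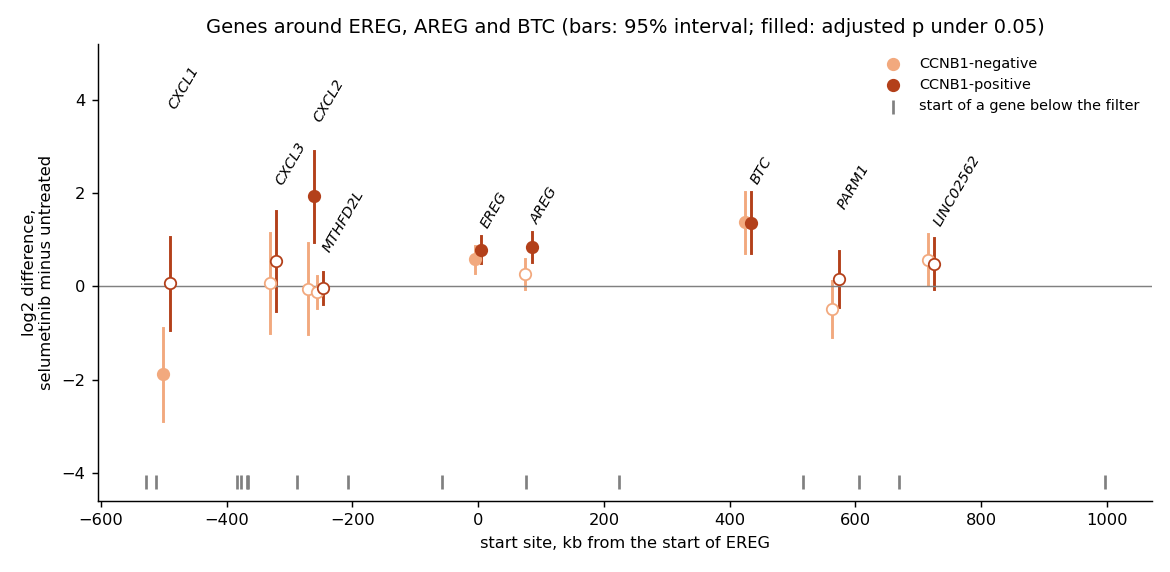
log2 difference (selumetinib minus untreated, y axis) with 95% intervals for the 9 tested genes around EREG, AREG and BTC, against the distance of their start from that of EREG in kb (x axis), in each fraction, with grey ticks for genes below the filter. EREG and BTC lie above 0 in both fractions, AREG is called in CCNB1-positive cells alone, and CXCL1 and CXCL2 are each called in 1 fraction.

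Over the 8 libraries, the genes whose pattern was most like that of a member were found by the root mean square (RMS) difference of log2 values after each gene's mean was removed. ERBB3, whose own values varied by an RMS of 0.67, was nearest to BACH1 (0.04), CCDC122 (0.07) and C11orf54 (0.07), and ERBB2 (own RMS 0.42) to MED23, BTBD2 and ZXDC (0.06 to 0.07). EREG (own RMS 0.42) was nearest to MPPE1, AC068724.3 and AC007566.1 (0.09 to 0.11) and AREG (own RMS 0.36) to ZNF250, ZNF45 and RELL1 (0.10 to 0.11), and neither was among the other's 3 nearest genes. BTC was nearest to AC124067.2, TSPAN33 and WBP1 (0.09 to 0.13), TGFA to VTI1B, PAFAH1B2 and NCKAP1 (0.06 to 0.07) and ERRFI1 to HEATR3, C19orf47 and GPD2 (0.09 to 0.10). HBEGF was nearest to AL391244.2, AL133215.1 and ZNF324B (0.16 to 0.17), and EGFR, which hardly varied (own RMS 0.08), to SLC35E1, ZNF200 and TIMM29 (0.05). No member was among the 3 nearest genes of another.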

How the data were processed

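Poly(A) mRNA-seq of 8 libraries of HT29 cells was analysed (2 in each of 4 groups), grouped by description. Per the labels and methods, the authors used Trim Galore 0.5.0 for trimming, HISAT2 2.1.0 for mapping to GRCh38 and SeqMonk for quantification. The deposited values are log2 of reads per gene, scaled by the authors to the total read count, with genes without reads at the log2 of 0.9 reads. The annotation release and strand handling of the table are not given in the sources used here. Whole reads were recovered for 100.0% of values, totalling 12696860 to 23916160 per library. The tolerance was 0.01 reads at low counts and widened in proportion to the count at higher ones, where the check is weak. These depths cover counting error only, as reads carry no molecular identifiers.

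Because the deposited unit is log2, limma 3.58.1 (R 4.3.3; trend, 2-sided) was fitted to 4 group means over 14219 genes averaging at least 1 RPM, with Benjamini-Hochberg adjustment over all of them and a threshold of 0.05. Alternatives were quantile normalization, median-ratio scaling, limma-voom on recovered reads, a pseudocount of 1 RPM, no filter or one at 10 RPM, a replicate block, and leaving out each library. Replicates differed by more than sampling noise (chi-square per gene 15.6 to 30.2) and were kept separate. Simulated reads used each gene's mean over all 8 libraries and 1 dispersion for all genes. Changes were planted in 200 of 14875 genes in the selumetinib CCNB1-negative libraries. In that comparison 63% of 2-fold and 100% of 4-fold changes were recovered, with 7 false calls among 170. Far fewer genes changed there than were called in the real comparison (74.1%), so these rates need not hold for it. Tables were joined with Python 3.11.15 and pandas 2.3.3.

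The members and the gene lists were chosen with earlier results of these data known. The genes named are all members, the ERK targets and other ERBB genes as listed, the largest rise and fall past the threshold of each further list in each fraction, and the 3 genes most like each member. In the ligand release list, every gene called with selumetinib is named as well. RPKM used the canonical transcript of GENCODE release 44, in which 99.3% of the table's gene identifiers were found. Promoter sequences are from RefSeq, GRCh38.p14. No protein sequence was used here.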

Additional observations from a re-analysis of the deposited data

Results flagged for a closer look

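PIK3R3, a regulatory subunit of PI3K, and ADAM15, a metalloprotease, came up because their response to selumetinib differed between the fractions by a test of the difference itself. For PIK3R3 the difference of the responses (CCNB1-positive minus CCNB1-negative) was -0.87 ± 0.23 (SE) on the log2 scale, with a limma adjusted p of 0.041: it rose in both fractions, by 2.80 in CCNB1-negative cells and 1.94 in the CCNB1-positive fraction. For ADAM15 it was 0.87 ± 0.20, with a limma adjusted p of 0.021: it changed by -2.39 in CCNB1-negative cells and -1.52 in the CCNB1-positive fraction. Over all genes 5.33% were called in this comparison (4.99% higher and 0.345% lower). Neither of these 2 differences was examined under the other scalings or with single libraries left out.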

How the results depend on the processing

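Across the alternatives that estimate the selumetinib effects, the counts of genes called in these comparisons stayed within 1.5 times their values. ERBB2, ERBB3 and ERRFI1 were called in both fractions under each of those settings. A replicate block nested in treatment gives no selumetinib effect. The count of 408 genes differing between fractions in untreated cells became 244 after quantile normalization and ran from 224 to 455 as single libraries were left out; in treated cells 3077 ran from 1156 to 4279, and for the difference of the responses 758 ran from 489 to 1806. The replicate numbers are shared between groups but not stated to mark a batch. Deviations of same-numbered libraries correlated at 0.352 between the untreated and 0.428 between the treated fractions, and at -0.088 to 0.082 across treatments. A replicate block raised these counts to 500, 3741 and 883 and called EREG between treated fractions (-0.38, adjusted p = 0.041), the 1 member call it changed; nested in treatment it gave 1923, 6671 and 3850 and called 7 member differences that the fit without it did not: between untreated fractions ERBB3 (-0.38), HBEGF (-0.75) and ERRFI1 (-0.31), between treated fractions ERBB2 (-0.24) and EREG (-0.38), and the difference of the responses for AREG (0.57) and HBEGF (0.65).

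Signs changed in values that were not called under the authors' scaling. EGFR's selumetinib difference was 0.0135 (CCNB1-negative) after quantile normalization, 0.0254 and 0.0433 with a pseudocount of 1 RPM, and 0.025 and 0.0437 with limma-voom, and its interaction -0.022 (quantile) and -0.034 (median-ratio). TGFA's interaction was -0.0803 (quantile), -0.0619 (median-ratio), -0.0096 (pseudocount) and -0.003 (limma-voom). BTC between untreated fractions was 0.0292 (quantile), and EGF in CCNB1-positive cells -0.28 (quantile). As single libraries were left out, differences between treated fractions ran from -0.16 to 0.0207 for EGFR, -0.13 to 0.0571 for AREG, -0.0343 to 0.27 for TGFA, -0.52 to 0.31 for HBEGF and -0.53 to 0.106 for BTC; between untreated fractions from -0.26 to 0.0155 for ERBB2, -0.0014 to 0.19 for TGFA and -0.44 to 0.0290 for BTC; and interactions from -0.0364 to 0.14 for EGFR, -0.26 to 0.022 for ERBB2, -0.13 to 0.18 for TGFA and -0.32 to 0.310 for BTC. HBEGF in CCNB1-positive cells ran from -0.60 to 0.24. The cause was not tested. Depth limits BTC, EGF, CXCL1 and CXCL2, which rest on few reads, and EPGN, which was not testable.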
